A study of Caenorhabditis elegans with 4 samples.

Results

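The group holds 133 of the 15913 piRNAs in the deposited table. These abundant piRNAs were still read, at a reduced level, in precipitates of PRG-1 without its PAZ domain. They were chosen from the sense reads themselves: each had 100 or more sense reads in both wild type libraries, and its level in the mutant was at least 2% and under 30% of its wild type level. The level is given in sense reads per 1000000 genome-mapped reads (RPM), with the reads of the libraries of a genotype pooled for the choice. The small RNAs came from whole Caenorhabditis elegans adults, hermaphrodites synchronized and cultured at 25 °C, as the RNA that co-precipitated with V5-tagged PRG-1. One group is labelled Wild Type and the other prg-1(∆PAZ-domain), both with the V5 tag on PRG-1, with 2 libraries each. The sources do not say whether the replicates came from separate cultures, and no allele number, input RNA, untagged control or PRG-1 protein level was used here. Fewer germ cells, less PRG-1 per cell and less piRNA per PRG-1 therefore cannot be told apart in these whole-animal precipitates. Without an untagged control, piRNAs bound to PRG-1 also cannot be told from other piRNAs in the precipitate.

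PRG-1 is the Piwi-type Argonaute of the C. elegans germline. It binds piRNAs, short RNAs that start from many small genes, most of them on chromosome IV, and uses them to recognise germline transcripts by base pairing, which leads to the production of secondary small RNAs and to silencing. In an Argonaute the MID domain holds the 5' end of the guide RNA and the PAZ domain holds its 3' end, so the mutant protein lacks one of the contacts that anchor the guide. The piRNAs are identified here by their piRNAdb names. Those names were not linked to sequences, genome positions or target transcripts in the sources used here, so the members are described by their reads alone.

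Genome-mapped reads numbered 6461936 and 8416474 for wild type replicates 1 and 2, against 7819170 and 14430880 for the mutant replicates. One piRNA that is not a member, cel-piR-8767, made up 3.59% and 2.49% of the wild type sense piRNA reads but 7.05% and 51.0% of those of mutant replicates 1 and 2. A plus-strand bin on chromosome I from 15000001 to 16000000 (ce11, the same assembly as WBcel235), with 4 annotated ribosomal RNA genes, accounted for 63.2%, 67.1%, 29.6% and 61.2% of all genome-mapped reads in the same order. Both quantities differed between the mutant replicates, and both enter the denominators used below. For cel-piR-8767 it was mutant replicate 2 that lay furthest from wild type, and for the ribosomal RNA bin it was mutant replicate 1.

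Summed over the 133 members, wild type replicates 1 and 2 gave 36342 and 36719 sense reads, and the mutant replicates gave 4529 and 1769. This made 5624 and 4363 RPM in wild type against 579 and 123 RPM in the mutant. With their SD (n = 2 each), the means were 4993 ± 892 RPM for wild type and 351 ± 323 RPM for the mutant. The mutant libraries lay below the wild type libraries with a wide gap, but they differed from each other by 4.73-fold, against 1.29-fold for the wild type libraries. With reads pooled by genotype, the members kept 5.76% of their wild type level, and against the pooled wild type they stood at 11.8% in mutant replicate 1 and at 2.50% in mutant replicate 2. Because the choice used this contrast, these values describe the members and were not tested.

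Single members ranged widely in level. In wild type replicate 1 the lowest, median and highest member had 15.6, 32.7 and 199 RPM, and in replicate 2 they had 12.2, 24.8 and 225 RPM. The corresponding levels were 0.512, 3.33 and 49.4 RPM in mutant replicate 1 and 0.0693, 0.624 and 8.94 RPM in mutant replicate 2. All 133 members had at least 1 sense read in every library. The choice required reads in both wild type libraries and in the pooled mutant libraries, so nothing is read from this. In mutant replicate 2, 20 members had 3 or fewer reads. The lowest mutant values rested on few reads, since the lowest member had 4 reads in mutant replicate 1 and 1 read in replicate 2, and 68 members had fewer than 10 reads in replicate 2. For each of the 133 members both mutant levels lay below both wild type levels. The same held for 98.6% of the 217 piRNAs with as many wild type reads, and the choice used this contrast, so nothing is read from the count.

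**Figure D1:**
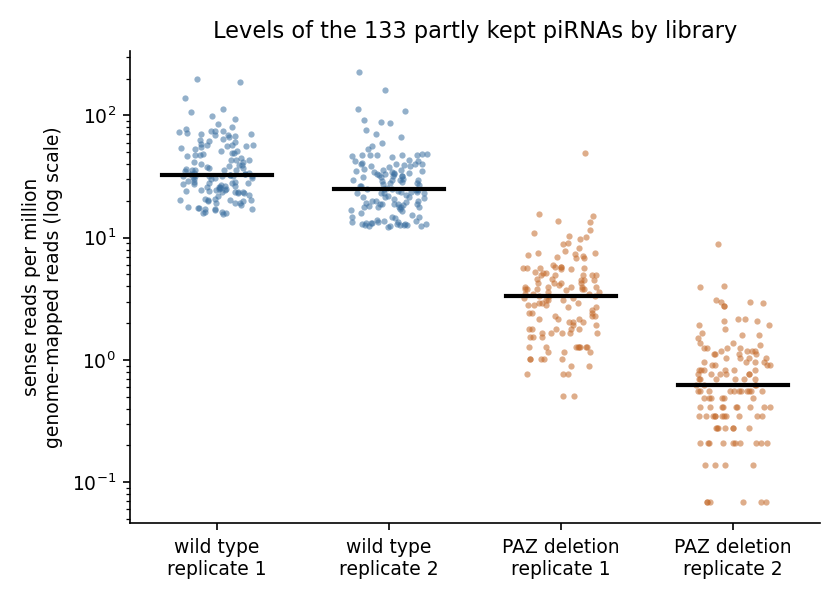
Sense RPM (log axis) of the 133 partly kept piRNAs in each of the 4 libraries; each point is a piRNA and the bar is the median of the library. The medians stand at 32.7 and 24.8 RPM in wild type and at 3.33 and 0.624 RPM in the mutant, so the 2 mutant libraries differ more than the 2 wild type libraries.

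Of the 217 piRNAs with 100 or more sense reads in both wild type libraries, 133 (61.3%) fell in the window, 81 lay below it and 3 above it. The level kept by the members had a median of 5.09% of wild type, with quartiles of 3.17% and 8.11%. The distribution was concentrated toward the lower limit: 65 members kept 2% to under 5%, 50 kept 5% to under 10%, 18 kept 10% to under 20%, and 0 kept 20% or more. The highest member stood at 17.5%, and the next piRNA above it, cel-piR-8767, at 79.2%. On pooled reads no piRNA of this abundance lay between these values. The pooled value of cel-piR-8767 rested on mutant replicate 2, where it stood at 105% of the pooled wild type level. In mutant replicate 1 it stood at 31.7%, within the range of the members in that library, which reached 41.6%, so this separation was not present there.

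The lower limit had piRNAs close to it on both sides. Just inside it, cel-piR-13051 had 206 and 160 reads in wild type against 8 and 3 in the mutant, or 2.01% of its wild type level. Just outside it, cel-piR-8470 had 141 and 133 reads in wild type against 7 and 1 in the mutant, or 1.95%. The next outside were cel-piR-11773 and cel-piR-2384, both at 1.93%. With exact 95% counting intervals on the pooled reads, the interval of 98 members lay wholly inside the window and that of 35 members reached below 2%. In turn, the interval of 33 of the 81 nearly lost piRNAs reached into the window. The border between partly kept and nearly lost piRNAs is thus a cut through a continuous range of values. These intervals cover the counting error of the pooled reads only. They leave out the spread between the libraries, and amplified reads are not independent molecules.

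**Figure D2:**
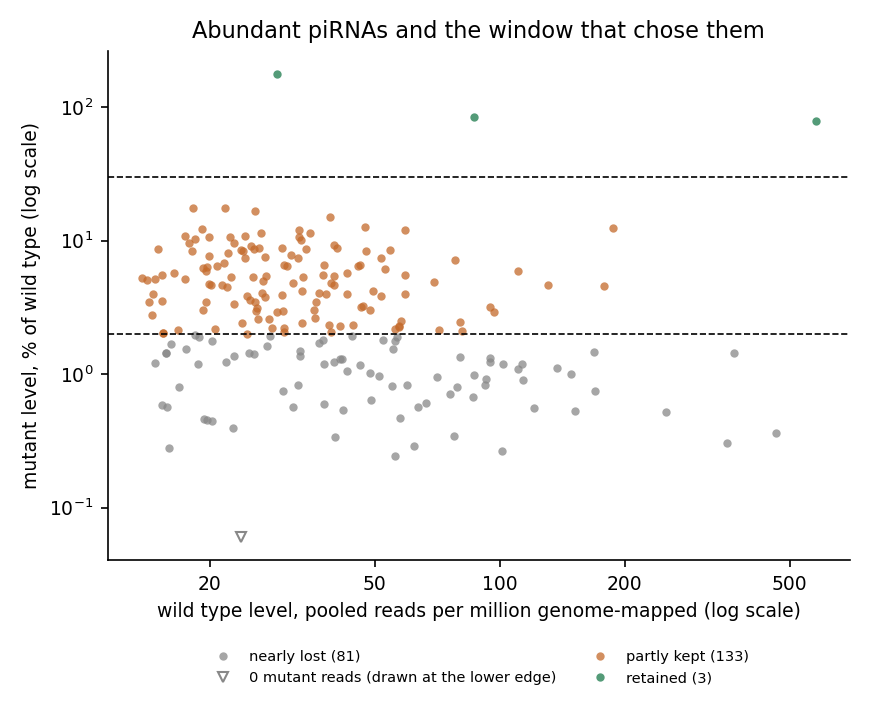
Mutant level as a percentage of wild type (log axis) against the pooled wild type level in RPM (log axis) for the 217 piRNAs with 100 or more sense reads in each wild type library; dashed lines mark the window of 2% and 30%. The 133 members sit directly above the 81 nearly lost piRNAs with no gap at 2%, whereas on these pooled reads the 3 retained piRNAs lie above the highest member at 17.5%.

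The level kept was not ordered by abundance among the members, with a Spearman rho of -0.13 between the wild type level and the percentage kept over the 133 members. This is a description, since the wild type level is also the denominator of the percentage. The 45 members with the highest wild type levels (37.6 to 187 RPM) had a median of 4.63% kept, the next 44 had 4.49% and the 44 with the lowest levels (13.7 to 24.3 RPM) 5.66%. Of the 72 most abundant of the 217 piRNAs, 29 were members and 41 were nearly lost, whereas 53 of the next 72 and 51 of the 73 least abundant were members. The median wild type level was 29.8 RPM for the members and 46.2 RPM for the nearly lost piRNAs. Both classes were set by a ratio to the wild type level, so these counts and medians are a description too.

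The 10 most abundant members held 22.6% of the members' wild type reads and 21.4% of their mutant reads. The most abundant, cel-piR-9221, had 138 and 225 RPM in wild type against 49.4 and 8.94 RPM in the mutant, which made 12.4% of wild type (95% counting interval 11.2% to 13.6%). In mutant replicates 1 and 2 taken alone it stood at 26.4% and 4.77% of the pooled wild type level, each outside this interval. It supplied 3.81% of the members' wild type reads and 8.18% of their mutant reads, so it was the member with the most reads in both genotypes. Its 2 mutant levels differed by 5.52-fold and its wild type levels by 1.64-fold, with replicate 2 the higher.

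The next members by wild type level kept less. The levels of cel-piR-9847 were 199 and 162 RPM in wild type against 15.7 and 4.02 RPM in the mutant, 4.57% of wild type (interval 3.91% to 5.31%). The levels of cel-piR-11737 were 187 and 88.3 RPM in wild type against 11.6 and 3.12 RPM in the mutant, 4.67% of wild type (interval 3.89% to 5.55%). For cel-piR-3507 the wild type libraries were close together, at 113 and 109 RPM, and the mutant libraries stood at 13.7 and 2.77 RPM, 5.96% of wild type. All 3 had their higher mutant level in replicate 1, as cel-piR-9221 did, and all of their mutant levels lay below their wild type levels.

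Lower fractions were kept by several of the other abundant members. With 76.8 and 113 RPM in wild type against 6.78 and 0.693 RPM in the mutant, cel-piR-6931 kept 2.92%. The piRNA cel-piR-1861 went from 72.0 and 70.8 RPM to 3.71 and 0.346 RPM, keeping 2.14%, and cel-piR-3662 from 74.0 and 86.9 RPM to 2.56 and 1.25 RPM, keeping 2.10%. The last 2 lie so near the lower limit that their counting intervals, 1.48% to 3.01% and 1.48% to 2.90%, reach below it. The remaining members of the 10 were cel-piR-786 at 3.17%, cel-piR-6888 at 2.46% and cel-piR-11386 at 7.12%.

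**Figure D3:**
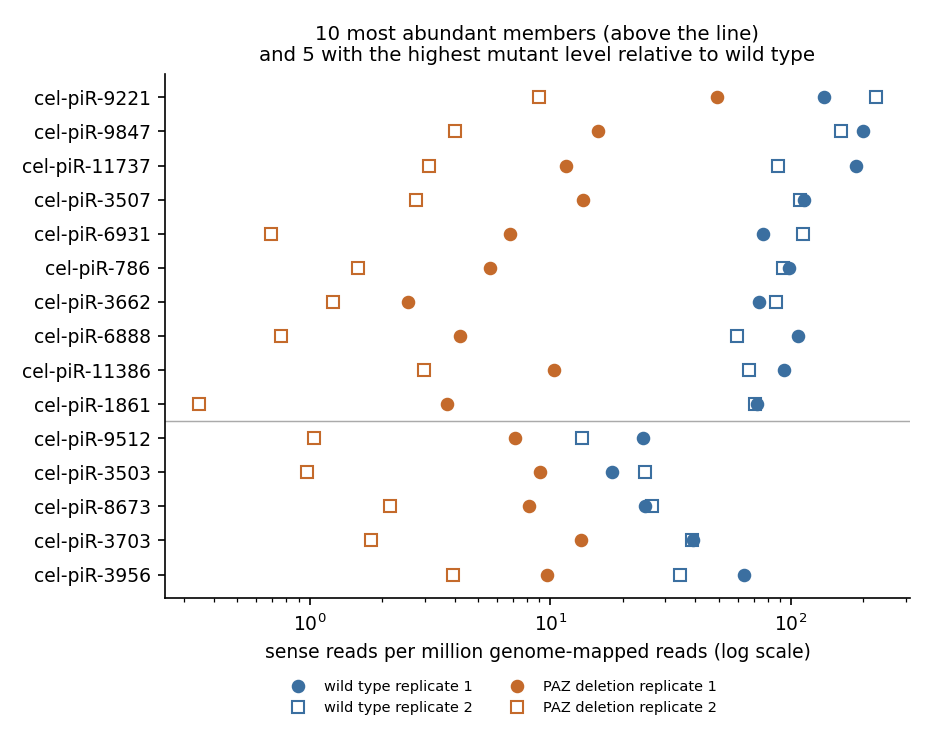
Sense RPM (log axis) in each library for the 10 members with the highest wild type level, above the grey line, and the 5 members with the highest mutant level relative to wild type, below it. Filled circles are replicate 1 and open squares replicate 2; in every row both mutant points lie to the left of both wild type points, with mutant replicate 2 the lowest.

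The 5 members that kept the largest fraction were cel-piR-9512, cel-piR-3503, cel-piR-8673, cel-piR-3703 and cel-piR-3956. The first, cel-piR-9512, had 24.3 and 13.5 RPM in wild type against 7.16 and 1.04 RPM in the mutant, 17.5% of wild type (interval 13.3% to 22.8%). For cel-piR-3503 the levels were 18.0 and 24.8 RPM against 9.08 and 0.970 RPM, also 17.5%. These values rested on 71 and 85 mutant reads, of which replicate 1 supplied 56 and 71.

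A more even pair of wild type libraries was seen for the next 2 members. The piRNA cel-piR-8673 had 24.8 and 26.4 RPM in wild type against 8.19 and 2.15 RPM in the mutant, 16.6% of wild type. With 39.0 and 38.9 RPM in wild type against 13.4 and 1.80 RPM in the mutant, cel-piR-3703 kept 15.1%. The fifth, cel-piR-3956, stood at 63.8 and 34.7 RPM in wild type and at 9.72 and 3.95 RPM in the mutant, 12.6% of wild type. In mutant replicate 1 taken alone, 4 of these 5 stood above 30% of the pooled wild type level, from 31.9% for cel-piR-8673 to 41.6% for cel-piR-3503. In mutant replicate 2 the same 4 stood at 4.44% to 8.37%.

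At the other end, the 5 members that kept the least were cel-piR-13051, cel-piR-11124, cel-piR-11795, cel-piR-3878 and cel-piR-4165, at 2.01% to 2.08% of wild type. They had 4 to 13 reads in mutant replicate 1 and 1 to 8 in replicate 2. For cel-piR-11124, with 125 and 105 wild type reads, the mutant reads were 4 and 3, and the counting interval of the fraction kept ran from 0.809% to 4.26%. At this depth these members cannot be placed on either side of the lower limit.

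The fraction kept differed between the mutant libraries for nearly every member. The RPM was higher in mutant replicate 1 than in replicate 2 for 132 of the 133, with a median ratio of 5.52 and quartiles of 3.43 and 8.20. In wild type, 102 of the 133 were higher in replicate 1, with a median ratio of 1.33. The piRNAs outside the group, without cel-piR-8767, were together 3.98-fold higher in mutant replicate 1 and 1.32-fold higher in wild type replicate 1. For the nearly lost piRNAs with a mutant read, the median ratio between the mutant libraries was 4.46, with quartiles of 2.12 and 10.3. The offset between the mutant libraries was thus shared with the other piRNAs. The most abundant piRNA went the opposite way, with 0.302 times the RPM in mutant replicate 1 that it had in replicate 2. The ribosomal RNA bin also held a smaller share of reads in mutant replicate 1. Per 1000000 reads outside that bin, the members stood at 15274 and 13259 in wild type and at 823 and 316 in the mutant, and the mutant libraries then differed by 2.61-fold.

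Taken alone, mutant replicate 1 placed 129 members in the window and 4 above it. Mutant replicate 2 placed 70 in the window and 63 below it. Both libraries placed the same 66 members in the window, which is 49.6% of the members, against 30.4% of the 217 piRNAs of this abundance; the choice used the same reads, so the difference is not a result. The 18 members that kept 10% or more on pooled reads were all at 16.9% to 41.6% in replicate 1 and at 2.48% to 8.37% in replicate 2. Their median levels were 30.3 and 21.7 RPM in wild type against 7.03 and 1.39 RPM in the mutant. For the 65 members under 5%, the medians were 35.4 and 28.9 RPM in wild type against 1.92 and 0.416 RPM in the mutant. The order of the members was partly shared between libraries. Over the 133 members the Spearman rho of the RPM was 0.69 between the wild type libraries and 0.62 between the mutant libraries, and that of the percentage kept was 0.53 between the mutant libraries. The last value shares the wild type denominator, and each rests on low counts in mutant replicate 2.

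**Figure D4:**
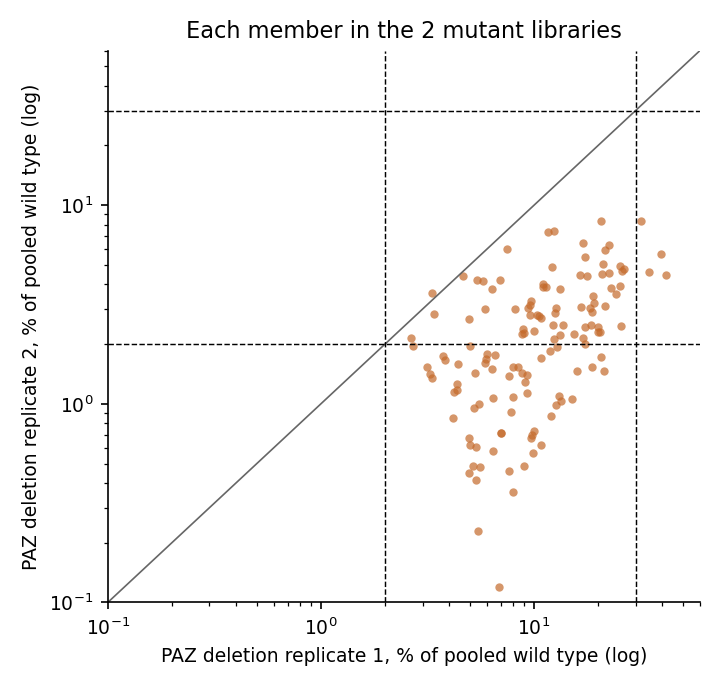
Level of each of the 133 members in mutant replicate 2 against mutant replicate 1, both as a percentage of the pooled wild type level (log axes); the solid line marks equality and the dashed lines the window of 2% and 30%. Of the 133 points, 132 lie below the line of equality, and 63 lie below 2% in replicate 2.

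The spread between the mutant libraries was uneven among the members. Among members with at least 50 mutant reads, cel-piR-6955 showed the widest gap, with 10.1 and 0.693 RPM in the mutant against 56.6 and 40.6 RPM in wild type. It was followed by cel-piR-2200, cel-piR-9237, cel-piR-6931 and cel-piR-3503, whose mutant libraries differed by 10.8, 10.4, 9.78 and 9.36-fold. Among members with at least 10 reads in each mutant library, the closest mutant libraries were those of cel-piR-9344, with 1.66 and 1.39 RPM in the mutant against 48.7 and 48.7 RPM in wild type. For cel-piR-4081 the mutant levels were 3.45 and 2.77 RPM and the wild type levels 54.0 and 39.9 RPM. Both of these kept an almost equal fraction in the 2 mutant libraries, 3.41% and 2.84% for cel-piR-9344 and 7.50% and 6.02% for cel-piR-4081, and the next closest by the same minimum, cel-piR-6377, kept 11.6% and 7.36%.

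Wild type libraries also disagreed for some members. The widest gap was that of cel-piR-13258, with 67.8 and 18.3 RPM in wild type against 3.58 and 0.901 RPM in the mutant. For cel-piR-3676 and cel-piR-10652 replicate 1 was higher by 3.28-fold and 2.75-fold. In the opposite direction, cel-piR-11478 had 17.2 and 47.3 RPM in wild type against 5.63 and 1.52 RPM in the mutant. For the last, the lower wild type level was 3.05-fold above the higher mutant level. Its groups were thus separated, but not by much more than its 2.75-fold spread in wild type. For cel-piR-10652 the same gap was 2.51-fold, less than its 2.75-fold spread in wild type. For cel-piR-13258 and cel-piR-3676 it was 5.11-fold and 13.1-fold, wider than their spreads in wild type.

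To read the same measure in libraries that did not choose, the thresholds were applied to a single library of each genotype. The chosen piRNAs were then read in the other libraries. The members themselves were chosen from all 4 libraries, so no library is held out for them. The sets chosen here overlap the members in part and do not check them. Chosen from replicates 1 alone, 203 piRNAs, 128 of them members, stood at a median of 7.07% of wild type. In replicates 2 the median of these 203 was 2.21%, with 104 (51.2%) in the window, 97 below it and 2 above it. For comparison, 42.4% of all 276 piRNAs with 100 or more reads in wild type replicate 1 were in the window in replicates 2. Chosen from replicates 2 alone, 95 piRNAs, 79 of them members, stood at a median of 3.80%. In replicates 1 they stood at 11.6%, with 78 (82.1%) in the window against 69% of 258. With the replicate numbers crossed, 55 of 74 (74.3%, against 73.2%) and 56 of 184 (30.4%, against 29.1%) were in the window in the other libraries. Of these 74 and 184 piRNAs, 58 and 120 were members. The shares that stayed in the window lay 8.84 and 13.1 percentage points above those of all piRNAs of similar abundance in the first 2 choices. In the crossed choices the difference was 1.14 and 1.37 points. All piRNAs of similar abundance include the chosen ones, so these differences are not an excess over the other piRNAs. They cannot be compared between choices either. The share in the window was 74.3% and 82.1% where mutant replicate 1 was read and 30.4% and 51.2% where mutant replicate 2 was read.

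The members were next set against the rest of the piRNA reads. They held 25.5% of the sense piRNA reads in wild type replicate 1 and 26.2% in replicate 2 (exact 95% binomial intervals 25.3% to 25.7% and 26.0% to 26.4%). In mutant replicates 1 and 2 they held 22.3% and 10.3% (intervals 21.7% to 22.9% and 9.84% to 10.8%). These intervals cover the counting error within a library only and leave out the spread between libraries. The low share in mutant replicate 2 coincided with the 51.0% taken there by cel-piR-8767. Without that piRNA in the total, the members held 26.4% and 26.9% in wild type against 24.0% and 21.0% in the mutant, 26.7% ± 0.312 against 22.5% ± 2.12 (SD, n = 2 each).

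The other classes of piRNAs shifted further on this scale. The 81 nearly lost piRNAs went from 29.3% and 32.8% of these reads in wild type to 4.25% and 4.10% in the mutant. The 15696 piRNAs with fewer than 100 reads in a wild type library, of which 6034 had a sense read, went from 43.8% and 39.5% to 62.8% and 62.0%. The 2 remaining retained piRNAs went from 0.396% and 0.865% to 8.96% and 12.9%. The nearly lost and retained classes were defined by their ratios, so their shifts follow from the choice. The rarer piRNAs were set apart by their wild type reads, which are also the denominator of the percentage kept. Together they kept 10.01% of their wild type level against 5.76% for the members. In mutant replicates 1 and 2 taken alone they kept 19.8% and 4.72%, against 11.8% and 2.50% for the members. The limits of the window kept retained and nearly lost piRNAs out of the members, whereas the rarer piRNAs had no such limits. A choice by low wild type reads can also raise the percentage kept. The difference between these classes therefore depends in part on the choice.

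**Figure D5:**
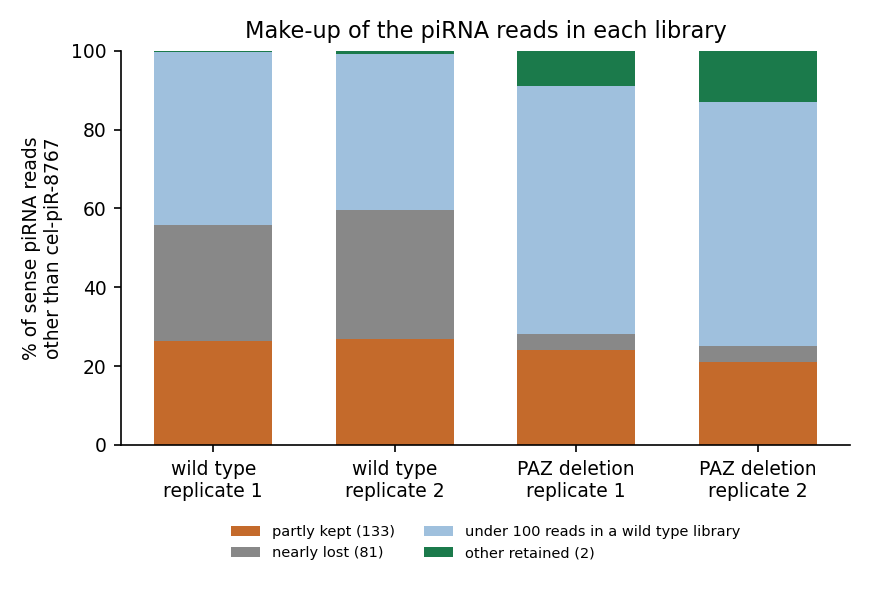
Share of the sense piRNA reads other than cel-piR-8767 (percent, bars from 0 to 100) held in each library by the partly kept piRNAs, the nearly lost piRNAs, the piRNAs with fewer than 100 reads in a wild type library and the 2 other retained piRNAs. The partly kept piRNAs hold 26.4% and 26.9% in wild type against 24.0% and 21.0% in the mutant, and the nearly lost piRNAs hold 4.25% and 4.10% in the mutant.

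Relative to this remaining pool, members lay on both sides of their wild type share. Their pooled share in the mutant had a median of 76.4% of that in wild type, with quartiles of 47.6% and 122%. It ranged from 30.1% to 263% and was higher in the mutant for 42 of the 133. For every member this value is the percentage kept times the same factor. Its spread therefore restates that of the percentage kept and is not a separate result. For 18 members both mutant shares exceeded both wild type shares, for 56 both were lower, and for 59 the genotypes overlapped. Over the 217 piRNAs of this abundance, members and the 81 nearly lost piRNAs included, 21 (9.68%) were higher and 137 (63.1%) lower. Nothing is read from the difference because the same reads chose the members. Per genome-mapped read the 18 kept 8.84% to 17.5%, and 15 of them were among the 18 that kept 10% or more.

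A few of these members show the range on this scale. The share of cel-piR-9221 was 0.647% and 1.39% of the remaining pool in wild type against 2.04% and 1.53% in the mutant. For cel-piR-8673 it was 0.116% and 0.162% in wild type against 0.339% and 0.368% in the mutant, so both mutant libraries were about equally far above the wild type libraries. For cel-piR-3503 the shares were 0.0844% and 0.153% in wild type against 0.376% and 0.166% in the mutant, so that replicate 2 of the mutant barely exceeded replicate 2 of wild type. In contrast cel-piR-9847, the second most abundant member, had 0.936% and 0.998% in wild type against 0.651% and 0.688% in the mutant, lower in both mutant libraries. All of these piRNAs had lower levels in the mutant per genome-mapped read.

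Antisense reads were the measure that the choice did not use. They were almost absent from the members: 130 of the 133 had 0 antisense reads in the 4 libraries, and the other 3 had 28 together, 0.0353% of all reads of the members. The share was 0.00464% for the 81 nearly lost piRNAs, which had 4 antisense reads, and 0.835% over the whole table, where cel-piR-10337 alone held 1194 of the 2698 antisense reads. Only 354 of the 15913 piRNAs in the whole table had any antisense read. A lack of antisense reads is therefore not particular to the members. Of the 28, mutant replicate 1 held 22 and the other libraries held 1, 2 and 3. The piRNA cel-piR-11737 had 1 and 2 antisense reads in wild type against 16 and 2 in the mutant, beside 91 and 45 sense reads in the mutant. The piRNA cel-piR-3729 had 5, all in mutant replicate 1, and cel-piR-10370 had 1 in each mutant library. In a test of the antisense counts over the whole table (edgeR, quasi-likelihood, adjusted p under 0.05), 7 piRNAs had enough reads, with 4 of them (57.1%) called lower and 0 (0%) called higher in the mutant, and 0 called higher also at an unadjusted p under 0.05 and by DESeq2. TMM factors gave 2 lower and 2 higher, and the replicate block 1 lower. The 4 calls became 0 without either wild type library and 1 without mutant replicate 1. No member had enough reads to be among the 7. Without a filter on low counts 3 members were tested and 0 were called. With a library left out, where a lone library was assumed to vary like those of the other genotype, 1 member was tested and not called without either wild type library, and cel-piR-11737 was called higher without mutant replicate 2.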

How the data were processed

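Per the labels' protocols, small RNAs were extracted from V5-PRG-1 precipitates of whole-worm lysates and sequenced at a company with its own library method. As deposited by the authors, the piRNA table holds raw read counts for each piRNA and orientation against a piRNAdb set (version 1.7.6), and a second table holds raw counts per 1 Mb bin and strand of ce11, per the file headers. A further deposited table gave genome-mapped reads per library, and they equalled the sum over bins. How reads were trimmed, aligned and, where they matched several piRNAs, assigned is not stated in these sources, so piRNAs of near-identical sequence are uncertain; no member had the same 4 sense counts as another piRNA. The total row of each table was dropped.

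Members and lists were chosen with earlier results of these data known. RPM used genome-mapped reads. Counting intervals of a ratio came from exact binomial intervals on pooled reads. A count of 0 allows 3 reads, or 0.208 to 0.464 RPM over the libraries. The sense contrast chose the members and received no test. Antisense counts were tested with edgeR 4.0.16 in R 4.3.3 (genome-mapped reads as library size, filterByExpr with a minimum count of 10 and total of 15, Benjamini-Hochberg adjustment), with DESeq2 1.42.0 as an alternative. The edgeR code was also run on counts simulated from sense levels. That setting is unlike the few antisense piRNAs tested, so the run lends their calls no support. The p-values of edgeR cover the spread between libraries only, which may be technical. Other steps ran in Python 3.11.15 with pandas 2.3.3, NumPy 2.4.6 and SciPy 1.17.1, and plots in matplotlib 3.10.9. Named members were the 10 highest in wild type, the 5 highest and 5 lowest ratios, those whose mutant (5 widest with at least 50 reads over both, 3 closest with at least 10 in each) or wild type (4 widest) libraries differed most or least, those with most antisense reads, and the 3 non-members nearest each limit. Groups and replicate numbers came from the sample titles.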

Additional observations from a re-analysis of the deposited data

How the results depend on the processing

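The number of piRNAs that met the rule was 133, ran from 70 to 165 with a library left out (70 without mutant replicate 1), and was 298 and 56 with minimums of 50 and 200 reads, 68 with a window of 0.05 to under 0.2, and 80 per piRNA read without cel-piR-8767, a denominator added after seeing the data. The members' summed level was 64.9% of wild type per piRNA read and 86.5% without cel-piR-8767, and 2.50% to 11.8% per genome-mapped read with a library left out; the median ratio was 0.574 and 0.764, and 0.0223 to 0.0988. The lowest of these came without mutant replicate 1 and the highest without mutant replicate 2. The members' share of piRNA reads was 26.7% in wild type without cel-piR-8767, and 26.8% in wild type and 25.2% in the mutant without all 3 retained piRNAs, a total also added later. Members in the window in both mutant libraries numbered 5 per piRNA read and 0 without cel-piR-8767, and members with both mutant levels below both wild type levels numbered 74 per piRNA read. Of the piRNAs chosen from replicates 1, 104 were in the window in replicates 2; the crossed choices gave 55 and 56.

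Per piRNA read, 8 of the 32 named members were higher in the mutant, with ratios of 1.36 for cel-piR-10652, 1.97 for cel-piR-3503, 1.7 for cel-piR-3703, 1.42 for cel-piR-3956, 1.87 for cel-piR-8673, 1.39 for cel-piR-9221, 1.20 for cel-piR-9237 and 1.97 for cel-piR-9512. Per genome-mapped read outside the ribosomal RNA bin, with the mean of per-library RPM, and with any 1 library left out, none of the 32 was higher. Antisense calls were 4 lower and 0 higher; TMM factors gave 2 and 2, and left-out libraries gave 0 to 3 lower (0 without either wild type library) and 0 to 1 higher, the 1 being the member cel-piR-11737 without mutant replicate 2. With the replicate block 1 was lower. The replicate numbers are not known to pair libraries: over 16 antisense piRNAs with at least 15 reads, the deviations of the same numbers had a correlation of 0.09. The cause of these changes was not tested.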
